A study of Arabidopsis thaliana with 12 samples.

Results

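Among the 27655 genes listed for Arabidopsis seedlings, 81 had a mean of at least 5 TPM (transcript abundance scaled by transcript length and to a fixed library total) in the solvent control and a mean of at most 25% of that control level after each of 3 treatments, which were abscisic acid (ABA) and its derivatives 3'-propyl ABA and 3'-butyl ABA. These 81 genes were chosen on their measured levels, by the mean of the 3 libraries of each treatment, so their low levels after treatment against the control describe the choice and were not tested. The PYR/PYL ABA receptor genes were left out by the rule, which removed PYL4, PYL5 and PYL6, the 3 receptor genes that met it. All 81 genes passed the filter on low values used for the tests below, a mean of 1 TPM over the 12 libraries, and the control limit alone makes them pass it.

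The seedlings were wild-type Col-0 plants kept in 96-well plates at 22 °C and exposed for 6 h under continuous light, in liquid half-strength Murashige and Skoog medium, to one of 4 solutions. The control group received the solvent DMSO. The other groups received ABA or its 3'-propyl or 3'-butyl derivative, each at 10 µM, so all 3 compounds were compared at 1 dose and 1 time. Each group had 3 libraries of whole seedlings, 12 in all, and the sources give the seedlings' age as 8 days in 1 place and 7 days in another. Nothing in the labels says whether the libraries of a group came from separate cultures, so the p-values below measure the spread between these libraries, which may be technical.

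ABA is a plant hormone made under drought and in maturing seeds. It binds PYR/PYL receptors, which then block clade A protein phosphatases and so release SnRK2 kinases, and these act on transcription factors and ion channels. In seedlings ABA is known for closing stomata, slowing growth and interacting with cytokinin, auxin and brassinosteroid signalling. The propyl and butyl derivatives carry an alkyl chain at the 3' carbon of the ABA ring, and the butyl chain is longer by 1 carbon.

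The 81 genes together held 3614, 3318 and 3623 TPM in the DMSO libraries. Their sum was 528, 389 and 342 TPM with ABA, 152, 169 and 195 TPM with 3'-propyl ABA, and 472, 473 and 531 TPM with 3'-butyl ABA. The propyl libraries were thus the lowest of all 12, and the ABA and butyl libraries overlapped. That overlap depended on the most abundant genes. Without the 3 genes most abundant in DMSO, the ABA libraries held 321, 234 and 214 TPM. The butyl libraries then held 336, 324 and 342 TPM, each above every ABA library. In the median gene 11.8% of the DMSO level was left with ABA, 4.08% with 3'-propyl ABA and 14.2% with 3'-butyl ABA. The mean was lowest with 3'-propyl ABA in 68 of the 81 genes, with ABA in 11 and with 3'-butyl ABA in 2. These counts hold ties. AT3G02790, AT3G10120 and AT5G46960, at 0 with every compound, were counted under ABA. AT1G29090, at 0 with both derivatives, was counted under 3'-propyl ABA. Because the samples are whole seedlings, fewer cells of a type and less RNA per cell cannot be told apart in any of these values.

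**Figure D1:**
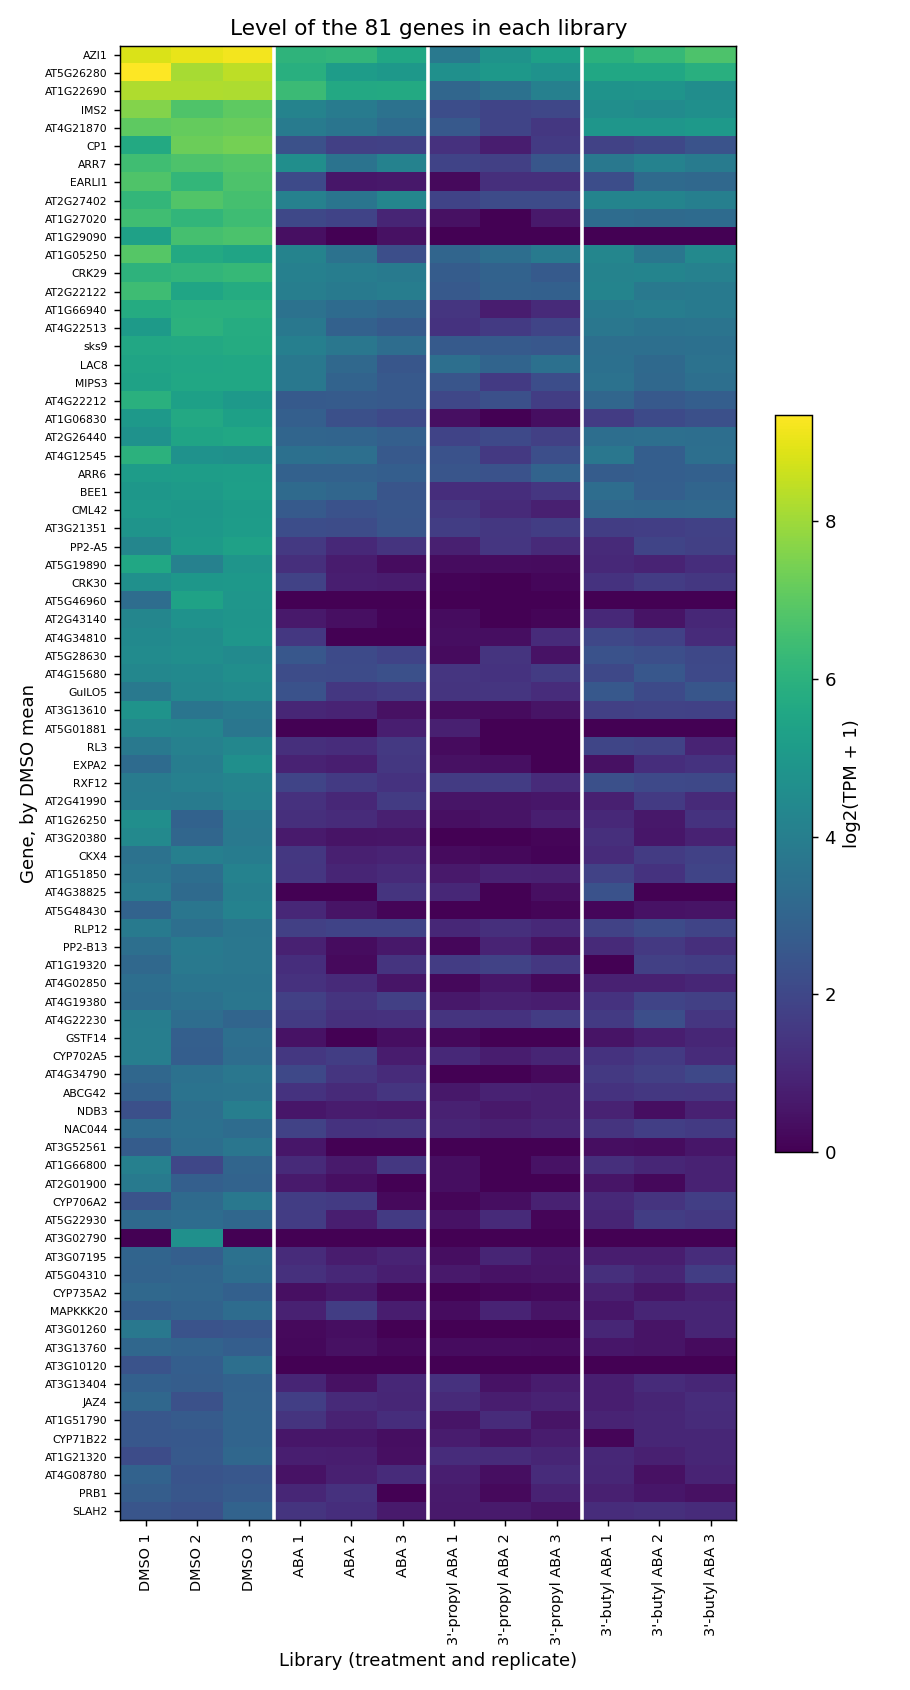
Level of each of the 81 genes (rows, ordered by DMSO mean) in each of the 12 libraries (columns), as log2(TPM + 1) on a colour scale from dark (low) to yellow (high). In 80 of the 81 rows all 3 DMSO libraries are brighter than all 9 treated libraries, and the propyl columns hold the darkest cells for most genes.

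Among genes with at least 5 TPM in DMSO, and without the receptor genes, the 25% limit was met by 155 genes with ABA, 518 with 3'-propyl ABA and 108 with 3'-butyl ABA. How far the genes were lowered varied widely. With ABA, 35 genes were under 10% of the DMSO level and 23 under 5%. With 3'-propyl ABA the counts were 66 and 44, and with 3'-butyl ABA 27 and 10. Only 23 genes were under 10%, and 10 under 5%, with all 3 compounds, so near-silence describes part of the set, and the rest are better called strongly lowered. In 80 of the 81 genes every DMSO library lay above every treated library. Over all 19528 genes tested, 24.7% were called lower with ABA, 38.5% with 3'-propyl ABA and 25.6% with 3'-butyl ABA, each against DMSO. These are shares of calls for single compounds, not of genes whose libraries did not overlap, a share not given here. Since the rule used the comparisons against DMSO, nothing is read from the 80.

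**Figure D2:**
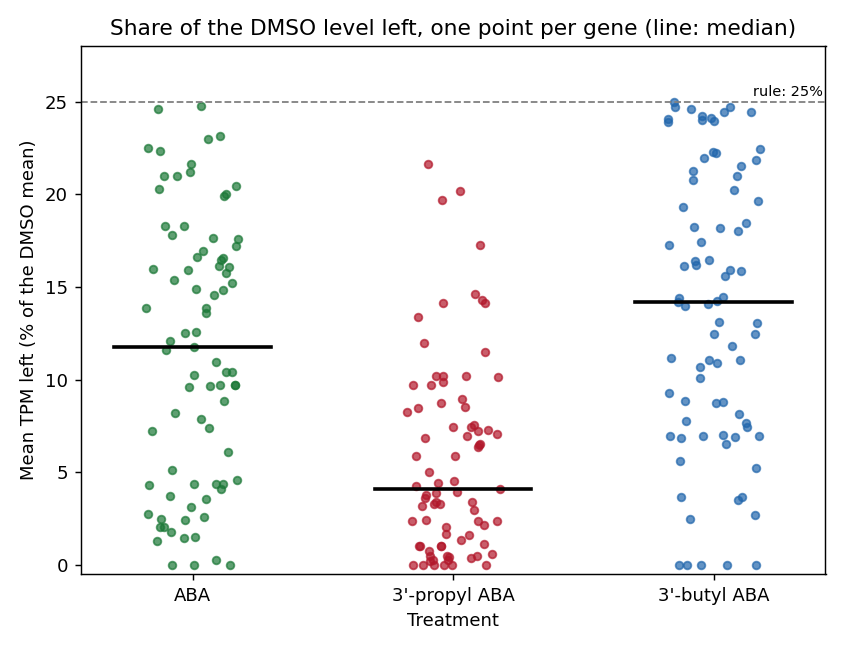
Mean TPM with each compound as a percentage of the DMSO mean, 1 point per gene, with the median of the 81 genes as a line and the 25% limit of the rule dashed. The medians are 11.8%, 4.08% and 14.2% for ABA, the propyl and the butyl derivative, and the points of all 3 reach from 0 toward the limit.

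The limit cut through a continuous range of values. The genes just inside it were RLP12, a receptor-like protein, at 24.98% with 3'-butyl ABA, JAZ4, a repressor of jasmonate signalling, at 24.8% with ABA, and SLAH2, an anion channel related to the guard-cell channel SLAC1, at 24.7% with 3'-butyl ABA. The SAUR gene AT4G34790 at 24.7% with 3'-butyl ABA and sks9, a multicopper oxidase-like cell wall protein, at 24.6% with ABA came next. The closest genes outside were SAUR15 at 25.1% and the peroxidase gene Prx37 at 25.2%, both with 3'-butyl ABA, followed by AT4G24340 at 25.6%, AT5G39580 at 25.8% and FLA9 at 25.8%.

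AZI1 was the most abundant gene of the set. It encodes a small lipid transfer-like protein that takes part in systemic immunity primed by azelaic acid, and it lies on chromosome 4 beside its paralog EARLI1, also tied to defence priming and to cold. AZI1 stood at 455, 523 and 585 TPM in DMSO, 66.1, 71.2 and 46.8 TPM with ABA, 12.9, 26.9 and 39.0 TPM with 3'-propyl ABA, and 61.8, 75.1 and 107 TPM with 3'-butyl ABA. Every DMSO library was far above every treated one, the propyl libraries lay below all others, and the ABA and butyl libraries overlapped. EARLI1 stood at 109, 72.0 and 106 TPM in DMSO, 3.26, 0.483 and 0.514 TPM with ABA, 0.182, 1.39 and 1.42 TPM with 3'-propyl ABA, and 3.61, 8.37 and 7.94 TPM with 3'-butyl ABA. For EARLI1 the butyl libraries were above all ABA and propyl libraries, which overlapped each other. No other gene lies between the pair, and 4113 bases separate them. The next paralog on the far side, AT4G12490, was not in the set because its DMSO mean was 2.24 TPM, and its means with ABA, the propyl and the butyl derivative were 0.190, 0.124 and 0.260 TPM. These genes are paralogs, so reads may have been divided between them in a way the files do not show; their transcripts were not compared here.

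The 250 bases before the annotated starts of AZI1 (chr4:7401952-7402201, minus strand) and EARLI1 (chr4:7406995-7407244, minus strand) are printed because these neighbours were lowered together. The pair of cysteine proteinase genes among the most lowered abundant members, AT1G29090 (chr1:10164453-10164702, minus strand) and CP1 (chr4:17376280-17376529, minus strand), are shown for contrast. All are RefSeq sequence of build TAIR10.1, 5′ to 3′ on the strand of the gene. Capitals mark TTGAC, the core letters of the W-box known to bind WRKY factors, or its reverse complement GTCAA.
AZI1: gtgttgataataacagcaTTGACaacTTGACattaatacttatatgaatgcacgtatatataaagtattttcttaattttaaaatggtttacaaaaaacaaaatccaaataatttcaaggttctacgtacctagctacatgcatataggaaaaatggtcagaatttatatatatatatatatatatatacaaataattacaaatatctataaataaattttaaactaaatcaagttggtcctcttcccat
EARLI1: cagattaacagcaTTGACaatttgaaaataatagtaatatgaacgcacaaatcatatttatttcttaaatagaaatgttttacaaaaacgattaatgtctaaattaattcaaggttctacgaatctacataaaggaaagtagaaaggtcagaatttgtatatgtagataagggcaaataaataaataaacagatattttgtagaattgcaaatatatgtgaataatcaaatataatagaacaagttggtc
AT1G29090: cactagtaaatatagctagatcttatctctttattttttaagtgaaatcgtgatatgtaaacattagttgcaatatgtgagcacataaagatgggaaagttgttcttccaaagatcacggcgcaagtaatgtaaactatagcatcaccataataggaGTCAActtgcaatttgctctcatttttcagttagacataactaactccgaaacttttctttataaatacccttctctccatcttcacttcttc
CP1: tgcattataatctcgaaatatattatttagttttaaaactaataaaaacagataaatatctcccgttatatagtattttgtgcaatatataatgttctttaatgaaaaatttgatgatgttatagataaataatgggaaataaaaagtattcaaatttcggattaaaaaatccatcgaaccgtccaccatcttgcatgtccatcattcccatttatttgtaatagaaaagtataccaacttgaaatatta

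The AZI1 and EARLI1 windows were identical at 83.9% of 218 aligned bases, and their longest shared run was taacagcattgacaa, which holds 1 TTGAC. The other 5 pairings of these windows gave 69.3% to 75.2% in the same alignment, and shared runs of at most 9 bases. AZI1 held 2 matches to TTGAC, EARLI1 and AT1G29090 1 each, and CP1 none in this window.

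The other lipid transfer genes of the set were AT4G22513 and AT4G12545, whose annotation places them in the same protein superfamily as EARLI1. AT4G22513 was at 33.3, 63.4 and 54.6 TPM in DMSO, 12.4, 6.41 and 5.30 TPM with ABA, 1.61, 2.05 and 2.79 TPM with 3'-propyl ABA, and 12, 10.8 and 11 TPM with 3'-butyl ABA. The propyl libraries of AT4G22513 were below all others. AT4G12545 had a DMSO mean of 38.4 ± 22.2 TPM (SD, n = 3), with 64.0 TPM in replicate 1 against 26.1 and 25.1 TPM in the others, and left 21.6%, 8.54% and 24.1% of it with ABA, the propyl and the butyl derivative.

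Other members are linked to defence or signalling at the cell surface. AT4G22212 and AT4G22230 encode small defensin-like proteins and lie 3 genes apart on chromosome 4. AT4G22212 was at 60.0, 38.6 and 32.3 TPM in DMSO and between 2.23 and 7.43 TPM in the treated libraries. AT4G22230 was lower throughout, with a DMSO mean of 10.3 ± 3.69 TPM (SD, n = 3) and means of 1.70, 1.78 and 2.52 TPM with ABA, the propyl and the butyl derivative. PRB1, a basic form of pathogenesis-related protein, was among the scarcest members at 5.23 ± 0.572 TPM (SD, n = 3) in DMSO. AT1G19320, a thaumatin-like pathogenesis-related gene, kept 9.63% with ABA, 20.2% with 3'-propyl ABA and 14.2% with 3'-butyl ABA, and so was one of 4 members whose highest treated mean was with 3'-propyl ABA. Genes of the defensin-like family may share reads.

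The 6 kinase genes included the cysteine-rich receptor-like kinases CRK29 and CRK30, whose relatives act in pathogen and oxidative responses. CRK29 was at 64.9, 70.9 and 75.2 TPM in DMSO, 16.1, 14.7 and 13.5 TPM with ABA, 5.55, 6.62 and 5.25 TPM with 3'-propyl ABA, and 17.0, 17.7 and 16.5 TPM with 3'-butyl ABA. Libraries of each group lay close together, and the 4 groups did not overlap. CRK30 had a DMSO mean of 28.6 ± 3.17 TPM (SD, n = 3) and means of 1.32 TPM with ABA, 0.0624 TPM with 3'-propyl ABA and 1.86 TPM with 3'-butyl ABA. The kinase-like gene AT1G66940 was at 57.8 ± 3.91 TPM (SD, n = 3) in DMSO and kept 15.4%, 2.07% and 23.9%. The leucine-rich repeat kinases AT1G51850 and AT1G51790 and the kinase MAPKKK20 started lower, at 12.7, 5.74 and 7.23 TPM in DMSO. AT3G07195, of the family of the immune regulator RIN4, was at 7.88 TPM in DMSO, and JAZ4 at 6.16 TPM. CML42, a calmodulin-like calcium sensor known from trichomes and herbivore responses, was at 32.6, 29.8 and 34.5 TPM in DMSO, 4.12 to 5.30 TPM with ABA, 0.748 to 1.89 TPM with 3'-propyl ABA and 7.80 to 8.03 TPM with 3'-butyl ABA.

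Both cysteine proteinase genes, which encode papain-like enzymes, were close to silent with all 3 compounds. AT1G29090 was at 40.03, 95.7 and 103 TPM in DMSO. With ABA it was at 0.30, 0 and 0.331 TPM, and it was listed at 0 in all 6 libraries of the derivatives. From the TPM steps of single reads, these values correspond to an estimated 2411 reads over the DMSO libraries and 6 over the 9 treated ones. CP1 was at 50.4, 150 and 169 TPM in DMSO, 3.94, 2.45 and 2.5 TPM with ABA, 1.50, 0.660 and 2.00 TPM with 3'-propyl ABA, and 2.63, 3.13 and 4.21 TPM with 3'-butyl ABA. Both genes were lowest in DMSO replicate 1, and even that library was above every treated library. The aspartyl protease gene AT5G48430 had a DMSO mean of 11.7 ± 4.83 TPM (SD, n = 3) and kept 4.36%, 0.273% and 2.46%.

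Other members were listed at 0 in every treated library. AT5G46960, which encodes an invertase or pectin methylesterase inhibitor, was at 9.15, 40.9 and 28.8 TPM in DMSO, an estimated 376 reads in total. AT3G10120, an uncharacterized gene, was at 4.21, 5.88 and 9.62 TPM in DMSO, an estimated 111 reads. AT3G02790, a zinc finger gene, was at 24.7 TPM in DMSO replicate 2 and listed at 0 in the other 11 libraries, DMSO replicates 1 and 3 included. AT3G02790 met the rule through that 1 library and is the exception among the 81 genes in which the DMSO and treated libraries overlapped. A 0 in these files may be a failed estimate, and no fold change is given for these genes. AT5G01881 and AT3G52561, both uncharacterized, were nearly as low: AT5G01881 had 16.2 TPM in DMSO and was at 0 in 7 of the 9 treated libraries, and AT3G52561 had 8.90 TPM in DMSO and at most 0.489 TPM after treatment.

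**Figure D3:**
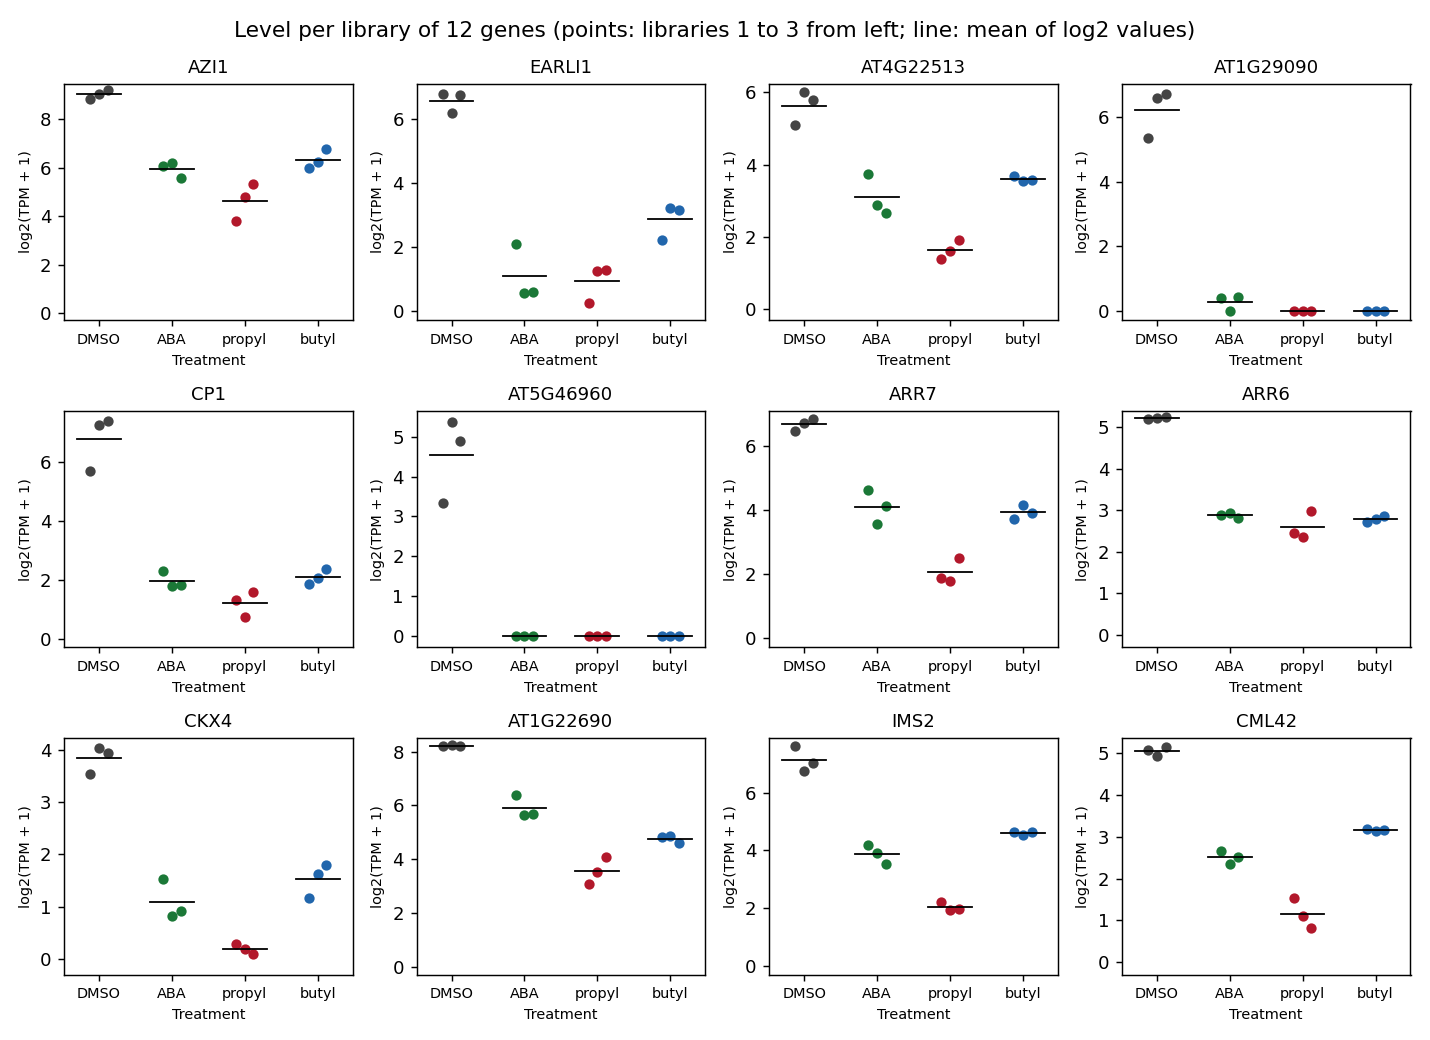
Level of 12 of the genes as log2(TPM + 1) in each library, points in replicate order within a treatment and a line at the mean of the log2 values. The propyl points are the lowest for ARR7, CKX4, IMS2 and CML42, whereas AT1G29090 and AT5G46960 sit at or near 0 with every compound and ARR6 is at about the same level with all 3.

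Genes of cytokinin signalling and turnover were in the set. Type-A response regulators such as ARR6 and ARR7 are induced by cytokinin and dampen its signalling, CKX4 encodes an oxidase that breaks cytokinin down, and CYP735A2 makes the trans-zeatin form. ARR7 was at 87.6, 105 and 114 TPM in DMSO, 23.4, 10.8 and 16.6 TPM with ABA, 2.69, 2.40 and 4.67 TPM with 3'-propyl ABA, and 12.3, 16.7 and 13.9 TPM with 3'-butyl ABA. ARR6 was at 35.3, 36.1 and 36.9 TPM in DMSO, 6.43, 6.57 and 6.01 TPM with ABA, 4.52, 4.10 and 6.84 TPM with 3'-propyl ABA, and 5.52, 5.91 and 6.30 TPM with 3'-butyl ABA. The propyl libraries of ARR7 were below all others, whereas the treated libraries of ARR6 overlapped across the 3 compounds. CKX4 was at 10.6, 15.3 and 14.2 TPM in DMSO and had means of 1.18, 0.140 and 1.93 TPM with ABA, the propyl and the butyl derivative. CYP735A2 was at 8.03, 7.52 and 6.32 TPM in DMSO and at most 0.757 TPM in any treated library.

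A short cytokinin list was drawn up after these members had been seen, and its remaining genes that passed the filter on low values were tested against DMSO. ARR15, ARR17, CKX2, CKX3 and CYP735A1 did not pass it and were not tested. Their DMSO means were at most 1.81 TPM. Of 6 further type-A response regulators tested, 2 fell and 1 rose with ABA, 3 fell and 1 rose with 3'-propyl ABA, and 2 fell and 0 rose with 3'-butyl ABA (limma, adjusted over all genes). ARR4 and ARR5 fell with all 3 compounds, ARR4 from a mean of 62.1 to 22.7, 13.8 and 22.1 TPM and ARR5 from 12.9 to 3.34, 2.38 and 3.39 TPM with ABA, the propyl and the butyl derivative. ARR16 rose from 1.29 to 2.44 TPM with ABA (adjusted p = 0.030) and to 4.96 TPM with 3'-propyl ABA (adjusted p = 4.81e-05). Of 4 further cytokinin oxidase genes tested, CKX6 fell with all 3 compounds, CKX1 fell with 3'-propyl ABA, and CKX5 and CKX7 rose with 3'-propyl ABA. Over all genes 24.7% were called lower and 22% higher with ABA, 38.5% and 27.5% with 3'-propyl ABA, and 25.6% and 25.1% with 3'-butyl ABA. These calls had the same direction and stayed past the threshold under median-of-ratios and quantile scaling.

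Members annotated to hormone-linked growth included BEE1, a GASA-type peptide gene and 3 SAUR genes. BEE1 encodes a transcription factor of the early brassinosteroid response, and it was at 29.8, 33.1 and 38.3 TPM in DMSO, 8.53, 7.58 and 4.55 TPM with ABA, 1.32, 1.36 and 1.81 TPM with 3'-propyl ABA, and 9.25, 6.14 and 7.33 TPM with 3'-butyl ABA. Its propyl libraries were the lowest and its ABA and butyl libraries overlapped. AT1G22690 belongs to the gibberellin-regulated GASA-type peptides and was steady in DMSO at 298, 304 and 293 TPM. It stood at 81.9, 49.6 and 50.3 TPM with ABA, 7.52, 10.4 and 15.8 TPM with 3'-propyl ABA, and 27, 28 and 23.3 TPM with 3'-butyl ABA, and these 4 groups did not overlap. Among the SAUR genes, which act in auxin-driven cell expansion, AT4G34790 and AT4G34810 lie on chromosome 4 with 1 gene between them. AT4G34790 was at 7.73, 10.2 and 12.1 TPM in DMSO and 3.10, 1.70 and 1.21 TPM with ABA, listed at 0 in 2 propyl libraries and at 0.185 TPM in the last, and at 1.91, 2.46 and 3.04 TPM with 3'-butyl ABA. AT4G34810 had 24.2 ± 4.54 TPM (SD, n = 3) in DMSO and left 2.60%, 2.40% and 9.30%. AT4G38825, the last SAUR gene of the set, had 12.5 TPM in DMSO. The SAUR gene between the neighbours, AT4G34800, left up to 35.7% and so missed the limit, and AT4G34770 beside them left up to 29.6%. SAUR genes form a large family and may share reads.

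Some members are annotated to the cell wall. AT2G26440, a pectin methylesterase, was at 38.5 ± 10.7 TPM (SD, n = 3) in DMSO and kept 17.8%, 7.28% and 24.5%, and AT5G04310, a pectate lyase-like gene, was at 7.84 ± 1.43 TPM and kept 13.8%, 5.86% and 19.3%. EXPA2, an expansin that loosens walls, was at 15.8 ± 7.79 TPM (SD, n = 3) in DMSO and kept 7.24%, 1.36% and 6.94%. The extensin-like AT1G26250 and the xylanase-like RXF12 had DMSO means of 14.4 and 15.7 TPM. LAC8, a laccase, was one of the 12 members whose mean with 3'-propyl ABA was not under that with ABA. Its means were 8.28, 8.89 and 9.61 TPM with ABA, the propyl and the butyl derivative against 45.2 ± 1.93 TPM (SD, n = 3) in DMSO. Its relative sks9 was at 49.8 TPM in DMSO and 12.3, 5.08 and 9.78 TPM after treatment. The class III peroxidases, which oxidise wall phenolics, were AT1G05250 at 70.6 ± 41.2 TPM, AT5G19890 at 30.4 ± 15.1 TPM and AT4G08780 at 5.29 ± 1.21 TPM in DMSO (SD, n = 3 each). AT5G19890 kept 2.48%, 0.764% and 3.66%, whereas AT1G05250 kept 14.9%, 14.1% and 24.0%. AT4G08780 lies beside the peroxidase gene Prx37, which just missed the limit, and the pair may share reads.

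Metabolic and redox members had diverse roles. IMS2, also called MAM3, elongates the side chain of methionine-derived glucosinolates, and it was at 195, 108 and 129 TPM in DMSO, 17.4, 14.0 and 10.5 TPM with ABA, 3.60, 2.83 and 2.97 TPM with 3'-propyl ABA, and 23.7, 22.1 and 24.1 TPM with 3'-butyl ABA. All 4 groups of IMS2 were separate. AT3G13610, known as F6'H1 and needed for the coumarin scopoletin, had 17.2 ± 8.55 TPM (SD, n = 3) in DMSO and kept 4.32%, 1.65% and 14.4%. MIPS3, an enzyme of inositol synthesis, kept 18.3%, 7.55% and 21.0% of 44.9 TPM. The glutaredoxin AT1G06830 was at 32.0, 48.6 and 38.6 TPM in DMSO, 6.04, 3.81 and 3.19 TPM with ABA, 0.307, 0 and 0.267 TPM with 3'-propyl ABA, and 2.13, 3.29 and 3.84 TPM with 3'-butyl ABA. The thioredoxin-superfamily gene AT4G15680, the glutathione S-transferase GSTF14 and the NAD(P)H dehydrogenase NDB3 had DMSO means of 21.2, 10.3 and 9.48 TPM. Besides CYP735A2, the cytochrome P450 genes were CYP702A5, CYP706A2 and CYP71B22 at 10.0, 8.40 and 5.60 TPM in DMSO. The transporter gene ABCG42 kept 15.7%, 7.42% and 18.2% of 9.50 TPM, and the long-chain alcohol dehydrogenase-like AT4G19380 kept 21.0%, 6.49% and 22.2% of 10.3 TPM.

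Regulators other than ARR6, ARR7 and BEE1 were also in the set. The bHLH gene AT2G43140 was at 18.5, 26.1 and 28.8 TPM in DMSO and at most 1.12 TPM in any treated library. RL3, a small MYB-like RADIALIS relative, had 16.2 ± 3.14 TPM (SD, n = 3) in DMSO and kept 9.60%, 0.427% and 13.1%. NAC044, known from the DNA damage response, kept 21.2%, 9.69% and 21.8% of 9.16 TPM. Abundant members of less certain role included AT5G26280, a TRAF-like gene at 654, 278 and 346 TPM in DMSO that kept 9.72%, 6.34% and 11.8%. The HSP20-like chaperone gene AT4G21870 was at 130, 139 and 146 TPM in DMSO, 13.9, 11.5 and 8.65 TPM with ABA, 5.07, 2.82 and 1.85 TPM with 3'-propyl ABA, and 29.4, 29.5 and 32.1 TPM with 3'-butyl ABA. AT2G27402 was at 93.3 ± 20.2 TPM (SD, n = 3) in DMSO, and AT1G27020 was at 88.5, 70.7 and 85.4 TPM, then 3.12, 2.65 and 0.938 TPM with ABA, 0.331, 0 and 0.576 TPM with 3'-propyl ABA, and 8.99, 8.46 and 8.67 TPM with 3'-butyl ABA. The butyl libraries of AT4G21870 and AT1G27020 were above all ABA libraries, and the propyl libraries below them.

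By words in the annotation, 38 of the 81 genes belonged to a gene family, 43 to none, 6 of the 20 families searched held no member, and 8 held 3 or more. The members were 3 of 53 class III peroxidases tested, 3 of 68 lipid transfer genes, 3 of 78 SAUR and other auxin-responsive genes, 3 of 112 pectin genes, 4 of 158 cytochrome P450 genes, 4 of 347 defence genes, 6 of 1060 kinases and 5 of 1140 transcription factors, beside 0.415% of all genes tested. The word search missed members described above, such as AZI1, BEE1 and RL3, so these counts are incomplete. The 2981 other tested genes of these 8 families moved in both directions against DMSO. With ABA 648 were called lower and 661 higher, and with 3'-butyl ABA 597 lower and 790 higher. With 3'-propyl ABA 1109 were lower and 839 higher, a balance that turned to 941 lower and 1016 higher under median-of-ratios scaling, and over all genes 22% were called higher with ABA, 27.5% with 3'-propyl ABA and 25.1% with 3'-butyl ABA.

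The compounds were compared with each other by limma on log2(TPM + 1), adjusted over all 19528 genes, in all 3 pairs. The rule did not use these differences, though it bounds them, since every mean had to stay under the limit. With 3'-propyl ABA 33 of the 81 genes were lower than with ABA, 0 were higher and 48 were not called, and 0 genes were higher also at an unadjusted p below 0.05. Over all genes 26.4% were called lower and 15.5% higher in this comparison, and the median difference was -0.53 on the log2 scale in the 81 genes and -0.10 over all. The largest differences were in AT1G22690 at -2.35 ± 0.23 (log2, SE; adjusted p = 2.7e-05), AT1G66940 at -2.18 ± 0.16 (adjusted p = 1.82e-06) and AT1G06830 at -2.14 ± 0.23 (adjusted p = 2.1e-05). ARR7 at -2.05 ± 0.26, AT2G27402 at -1.97 ± 0.18 and IMS2 at -1.83 ± 0.20 followed. ARR6, at -0.28 with a 95% interval from -0.58 to 0.02, and LAC8, at 0.17 with an interval from -0.37 to 0.70, were not called.

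A lower level with 3'-propyl ABA was also found in other lowered genes. A further 373 genes had a DMSO mean of at least 5 TPM and all 3 treated means at most 50% of it; this comparison was added after the values had been seen. Of them 57.9% were called lower with 3'-propyl ABA than with ABA, against 40.7% of the 81 genes. In 25 of the 81 genes both means were under 1 TPM, and 0 of those 25 were called. Between the derivatives both means were under 1 TPM in 23 genes, of which 6 were called. Marker sums of other cell types also differed between these groups. The 3 of 3 leaf mesophyll markers detected summed to 5403 to 7796 TPM with 3'-propyl ABA, 9722 to 11545 TPM with ABA, 11483 to 12315 TPM with 3'-butyl ABA and 7968 to 9120 TPM in DMSO. The 5 of 5 guard cell and stomatal lineage markers detected summed to 35.3 to 44.5 TPM with 3'-propyl ABA, 46.8 to 53.4 TPM with ABA, 45.5 to 57.5 TPM with 3'-butyl ABA and 60.9 to 73.2 TPM in DMSO. The 2 of 2 phloem markers detected summed to 104 to 142, 159 to 168, 192 to 202 and 109 to 124 TPM in the same order. On these 3 lists every propyl library was below every ABA and butyl library, and on the other 5 lists examined the propyl and ABA libraries overlapped. On the 3 lists no marker was at 0 in all libraries, and the part of these differences in the values of the 81 genes was not tested.

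**Figure D4:**
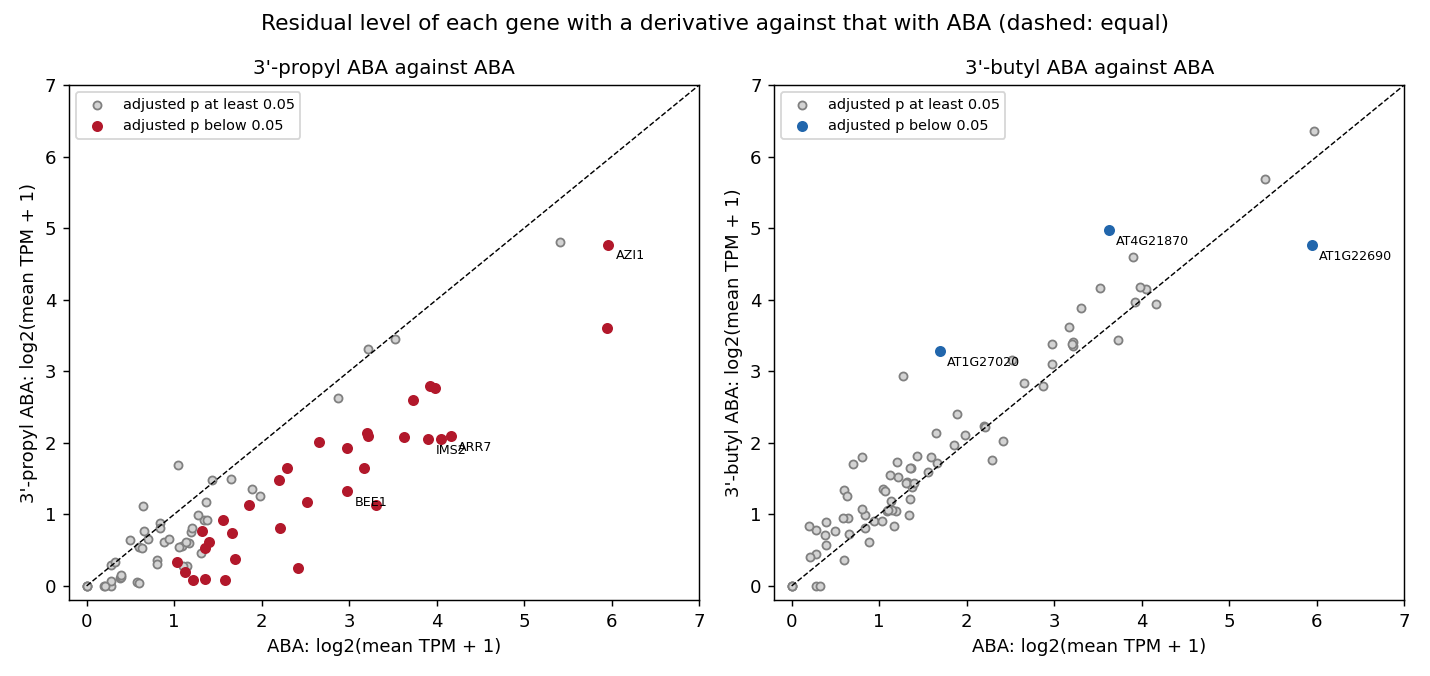
Level of each gene with 3'-propyl ABA (left) and 3'-butyl ABA (right) against its level with ABA, both as log2 of the mean TPM + 1, with a dashed line of equal levels and filled points for adjusted p below 0.05. Most points on the left lie under the line, with 33 called, and the points on the right lie close to it, with 3 called.

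Between 3'-butyl ABA and ABA few genes could be separated. AT1G27020 was higher with 3'-butyl ABA by 1.66 ± 0.25 (log2, SE; adjusted p = 0.0113) and AT4G21870 by 1.37 ± 0.23 (adjusted p = 0.0203), while AT1G22690 was lower at -1.15 ± 0.23 (adjusted p = 0.0425). The other 78 of the 81 genes were not called, beside 0.819% of all genes called higher and 0.783% called lower. At an unadjusted p below 0.05, 14 of the 81 genes were higher and 2 lower. The mean was higher with 3'-butyl ABA than with ABA in 58 of the 81 genes, or 71.6%. This held for 51.9% of all genes tested and 49.2% of those with at least 5 TPM in DMSO. For 39 of the 60 genes with a mean over 1 TPM in either group, the 95% interval lay within 1 log2 unit of 0. A larger difference on the log2(TPM + 1) scale was outside the interval for those genes and not for the others. That scale understates the change of low genes, so their TPM may differ by more than the interval shows. EARLI1 had the largest difference, 1.78 with an interval from 0.77 to 2.78, and an adjusted p of 0.083.

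The 3 calls between 3'-butyl ABA and ABA depended on single libraries, and some of them on the pseudocount. At a pseudocount of 0.1 the calls of AT1G27020 (adjusted p = 0.138) and AT1G22690 (adjusted p = 0.0548) were lost. That of AT4G21870 stayed (adjusted p = 0.0461). No gene of the set was called higher without butyl replicate 1 or without butyl replicate 3, and 1 was without butyl replicate 2, ABA replicate 2 or ABA replicate 3. Without DMSO replicate 1 or propyl replicate 1, 4 were called higher, and without ABA replicate 1, 5 were. Over all genes 160 were called higher with every library included. That number was 6, 36 and 32 without butyl replicates 1, 2 and 3 in turn. It was 33 and 55 without ABA replicates 2 and 3. Leaving out DMSO replicate 1, propyl replicate 1 or ABA replicate 1 gave 318, 192 and 258. The lower call of AT1G22690 was lost without any 1 of the ABA or butyl libraries, DMSO replicates 2 or 3, or propyl replicate 2, with adjusted p from 0.0552 to 0.162.

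Between the derivatives, 47 of the 81 genes were higher with 3'-butyl ABA than with 3'-propyl ABA, 0 were lower, also at an unadjusted p below 0.05, and 34 were not called. Over all genes 31.2% were called higher and 17.6% lower, with a median difference of 0.13 against 0.76 in the set. The derivatives differ by 1 carbon in the alkyl chain, and the largest differences were in AT4G21870 at 2.95 ± 0.23 (log2, SE; adjusted p = 2.64e-06), AT1G27020 at 2.92 ± 0.25 (adjusted p = 3.07e-06), AT1G66940 at 2.78 ± 0.16 (adjusted p = 1.92e-07) and IMS2 at 2.56 ± 0.20 (adjusted p = 2.75e-06). Of the further 373 lowered genes 64.6% were called higher with 3'-butyl ABA, against 58.0% of the 81. In 33 genes no pair of compounds gave a call, ARR6, CP1 and LAC8 among them. Over all genes the split for 3'-propyl ABA depended on scaling: against ABA 5148 genes were lower and 3021 higher as deposited, and 3491 lower and 4159 higher after median-of-ratios scaling, which moved the median of all genes from -0.10 to 0.01. Between the derivatives 6100 genes were higher with 3'-butyl ABA and 3431 lower as deposited, and 4193 higher and 4829 lower after that scaling. In the 81 genes 30 were still lower with 3'-propyl ABA than with ABA and 44 higher with 3'-butyl ABA than with 3'-propyl ABA under that scaling.

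The control libraries themselves differed for some of these genes. The median coefficient of variation over the DMSO libraries was 22.3% in the 81 genes, against 8.59% in all genes with at least 5 TPM. It was above 40% in 21 genes, of which 12 were highest in DMSO replicate 1, 7 in replicate 3 and 2 in replicate 2. In the full set of 81 genes, replicate 1 was the highest DMSO library in 25 and the lowest in 46. AT1G66800 was at 16.0, 3.01 and 7.25 TPM and AT3G01260 at 12.4, 4.29 and 4.73 TPM, both highest in replicate 1. NDB3 at 3.90, 9.59 and 14.9 TPM went the other way, as CP1 and AT1G29090 did. Some marker sums of other cell types were also highest in DMSO replicate 1. In the DMSO libraries 7 of 7 root hair markers were detected and summed to 172, 73.5 and 62.6 TPM. The 8 of 8 endodermis markers summed to 142, 65.0 and 66.2 TPM, and the root cap markers to 3.52, 1.89 and 2.41 TPM. Phloem sums, at 109, 122 and 124 TPM, and shoot epidermis sums, at 340, 445 and 364 TPM, were lowest in replicate 1. Leaf mesophyll, xylem, and guard cell and stomatal lineage sums were neither highest nor lowest there. The root hair sum was 30.1 to 102 TPM with ABA, 49.8 to 91.4 TPM with 3'-propyl ABA and 76.4 to 150 TPM with 3'-butyl ABA, and the endodermis sum was 56.0 to 109, 47.0 to 68.8 and 114 to 145 TPM. No defining marker of either list was at 0 in all libraries, and none belongs to the 81 genes; their part in the values above was not tested. Without DMSO replicate 1 the rule would give 98 genes, 9 of the 81 lost and 26 gained, and 57 of the 81 stayed under the rule whichever single library was left out. ABA replicate 1 was the highest ABA library in 55 of the 81 genes. For these counts of highest and lowest replicates, the matching shares over all genes are not given here.

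**Figure D5:**
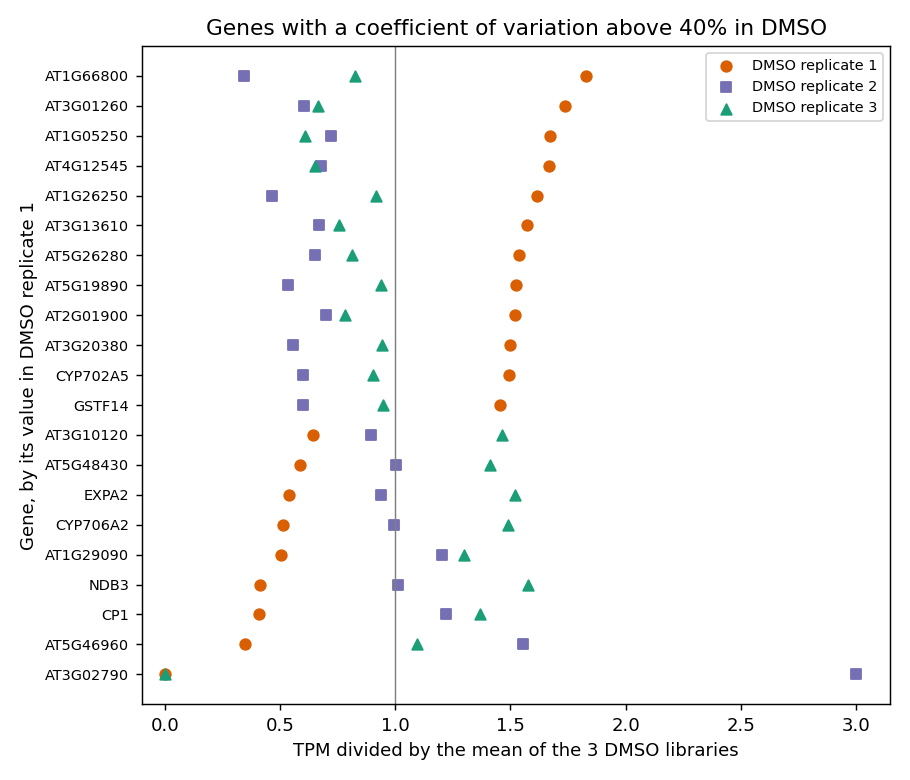
TPM in each DMSO library divided by the mean of the 3 DMSO libraries, for the 21 genes with a coefficient of variation above 40%. Replicate 1 (circles) is the highest in the 12 genes at the top and the lowest in the 9 at the bottom, and AT3G02790 has its only value in replicate 2.

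Several properties not used by the rule were compared with all 19401 tested genes that have an annotation, as a description. Chromosome 4 held 26 of the 81 genes, or 32.1%, against 15.4% of all. Single-exon genes were 24 of the 81, or 29.6%, against 15.9%, and the median spliced length was 1455 against 1729 bases. The 3 pairs of members with at most 5 genes between them were all on chromosome 4: AZI1 and EARLI1, the defensin-like pair and the SAUR pair. In the 250 bases before the start, on both strands, TTGAC was present in 58.0% of the 81 genes against 45.0% of all, TATAAA in 55.6% against 46.2% and CANNTG in 63.0% against 56.5%. TGGGCC was present in 3.70% against 16.6% and GATAA in 45.7% against 55.5%. ACGTG, the core of the ABA-responsive element, was in 21.0% against 24.2%, and CACGTG, which contains ACGTG and matches CANNTG, in 4.94% against 7.73%. Of the other motifs among the 12 searched, AAACCCTA was in 1.23% against 3.54% of all, and TGTCNC was in 19.8% against 23.7%. AAAATATCT was in 4.94% against 2.54%, and GCCGCC was in 2.47% against 1.94%. CGTGNG was in 12.3% against 13% of all.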

How the data were processed

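Per the labels, strand-specific poly(A) libraries were sequenced as read pairs on an Illumina HiSeq. The deposited values are TPM made by the authors, 1 column per library, each summing to 1000000, so no read counts were tested. The submitters' processing notes name bcl2fastq and TAIR10; which aligner, counter and gene models were used is not given in the sources used here. Because TPM moves in steps of 1 read, depth was estimated from low genes with RefSeq TAIR10.1 transcript lengths: 77.0% to 78.9% of the low values fell within 0.02 of a whole read, 1 read per kb was worth 0.130 to 0.169 TPM, and libraries came to 9430000 to 12200000 reads. Read numbers in the text are such estimates.

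Group means of the 3 libraries gave the 81 genes. limma 3.58.1 (R 4.3.3) was fitted to log2(TPM + 1) of the 19528 genes averaging 1 TPM or more, with all 12 libraries in 1 fit, a trended and robust variance, two-sided tests and Benjamini-Hochberg adjustment over all genes at 0.05. A fold change on this scale understates the change of low genes. The procedure was tested on simulated data. The 81 genes and the gene families were chosen with earlier results of these data known. Of the 81 genes, 46 were named by a rule on abundance, lowest share left, nearness to the limit, largest difference between compounds, gene family and chromosomal neighbours; the others were named for their annotated role after their values were seen. RefSeq annotation matched 27445 of the 27655 gene identifiers. Same-numbered libraries of different treatments were not treated as pairs. Alternatives were other limits of the rule, a pseudocount of 0.1, no filter, median-of-ratios and quantile scaling, only the libraries compared, a replicate block and leaving out each library.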

Additional observations from a re-analysis of the deposited data

How the results depend on the processing

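The number of genes under the rule was 127 with a DMSO limit of 2 TPM, 53 with a limit of 20% left, 166 with 33%, and 36 when every library rather than the mean had to meet the limits, a setting chosen after seeing the data. Leaving out 1 library at a time gave 77 to 98 genes. Of the 81 genes, 1 (AT1G21320) was called higher with 3'-propyl ABA than with ABA at a pseudocount of 0.1 and under quantile normalization, with log2 differences of 1.00 and 0.77; the cause was not tested. For 3'-butyl ABA against ABA, 313 of all genes were called, and 755 with a replicate block and 1719 when p-values were adjusted over the 3 comparisons together, a setting added later. In that comparison the count of the 81 genes called higher was 1 with a pseudocount of 0.1, 4 with the replicate block and 9 with the joint adjustment. The count called lower was 0 with a pseudocount of 0.1, 2 under quantile normalization and 2 with the joint adjustment. Higher calls with 3'-butyl ABA than with 3'-propyl ABA fell from 47 to 29 of the 81 genes under quantile normalization. Over all genes they fell from 6100 to 4517. The cause was not tested.

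Leaving out 1 library at a time gave 9 to 585 genes called between 3'-butyl ABA and ABA over all genes, the fewest without butyl replicate 1 and the most without DMSO replicate 1. Among the 81 genes it gave 0 to 5 higher and 0 to 2 lower in that comparison. For 3'-propyl ABA against ABA it gave 6552 to 8535 genes over all and 28 to 35 lower and 0 higher among the 81, and for 3'-butyl ABA against 3'-propyl ABA 7838 to 9934 over all and 36 to 50 higher and 0 lower among the 81. For 13 named differences between compounds, 228 of 247 alternatives stayed on the same side of the threshold with the same direction. Another 19 lost the call and 0 reversed. All 19 concern AT1G27020, AT4G21870 and AT1G22690 between 3'-butyl ABA and ABA. Many alternatives, such as the replicate block or leaving out a library of a group not compared, cannot change the estimate. In those no reversal was possible. The 13 were also chosen as the largest called differences, so this tally says little about smaller ones. The share of the DMSO level left moved by more than 1 SD in 65 of 726 alternatives. Deviations of same-numbered libraries correlated between -0.17 and 0.33, over 0.1 in 9 of 18 pairs, and 6 of 12 libraries correlated best with their own number, so not every pair was over 0.1 and the numbers were not used as pairs. The 6 pairs of replicate 1 were all over 0.1, between 0.12 and 0.33. With the replicate block AT1G22690 was not called between 3'-butyl ABA and ABA (adjusted p = 0.0573). The 1 lower call there was another gene, AT3G21351. In that comparison the block raised the calls over all genes from 313 to 755. Higher calls among the 81 rose from 2 to 4. No other call count changed by over 1.5 times with the block. Genes under about 1 TPM after treatment rest on few reads, which limits differences between compounds for them.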
